A study of Mus musculus with 12 samples.

Results

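The epidermal growth factor (EGF) family was followed through 10 genes, chosen by name from the 19702 genes of the deposited table. They were 7 ligand genes (Egf, Tgfa, Areg, Ereg, Hbegf, Btc and Epgn) and 3 receptor genes (Egfr, Erbb2 and Erbb3). All 10 were in the table, and all 10 passed the filter on low counts that left 16124 genes for testing. The RNA came from whole mouse corneas, in 12 libraries of 4 groups with 3 libraries each, and each library pooled 6 corneas of 3 mice. UCPRP corneas were injured with benzalkonium chloride (BAK), a detergent preservative of eye drops, and were given a biologic labelled UCPRP. UCS corneas had the same injury and were given a biologic labelled UCS. Vehicle corneas had the injury and no treatment per the labels. Control corneas had neither injury nor treatment. BAK was given to each eye as 5 µl of a 0.2% solution daily for 14 days, and either biologic as 5 µl of a 20% solution 3 times daily for 10 days. The series title describes the biologics as derived from cord blood, and the labels do not expand their names. The sources used here do not give the strain, age and sex of the mice or the time of harvest. They also do not say whether any drops followed BAK in Vehicle corneas or whether BAK and treatment days overlapped.

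EGF family ligands are made as precursors that sit in the cell membrane, and metalloproteases of the ADAM family cut them free. The released ligands bind EGFR or its relative ErbB4, which pair with each other or with ErbB2 and ErbB3 and signal through the RAS–ERK and PI3K–AKT routes. ErbB2 has no known ligand of its own, while ErbB3 binds neuregulins and has a weak kinase. In the cornea, signalling through EGFR drives the migration and division of epithelial cells that close a wound, and heparin-binding EGF-like growth factor, the product of Hbegf, is among the ligands released there after wounding.

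Of the ligand genes, 4 lie side by side on mouse chromosome 5 (GRCm38.p6). They are Epgn (91027517 to 91035212), Ereg (91074617 to 91093649), Areg (91139599 to 91148432) and Btc (91357261 to 91402994). This span of 375 kb held no other gene of the deposited table. RefSeq promoter windows were matched for 7 of the 10 members, and those of 3 genes of the chromosome 5 cluster are shown because Epgn and Btc were lower in every Vehicle library than in any Control library while their neighbour Areg was not. Each line gives the bases of the RefSeq window on GRCm38.p6 that lie before the earliest transcript start in RefSeq or GENCODE M21. Bases run 5′ to 3′ on the strand of the gene, with motif matches in capitals. The Epgn line is cut to 197 bases by a GENCODE start that precedes the RefSeq one.
Epgn promoter, chr5:91027267-91027463, plus strand: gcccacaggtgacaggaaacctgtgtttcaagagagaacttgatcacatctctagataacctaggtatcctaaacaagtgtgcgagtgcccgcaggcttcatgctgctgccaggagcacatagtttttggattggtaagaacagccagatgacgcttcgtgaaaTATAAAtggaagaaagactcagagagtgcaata
Areg promoter, chr5:91139349-91139598, plus strand: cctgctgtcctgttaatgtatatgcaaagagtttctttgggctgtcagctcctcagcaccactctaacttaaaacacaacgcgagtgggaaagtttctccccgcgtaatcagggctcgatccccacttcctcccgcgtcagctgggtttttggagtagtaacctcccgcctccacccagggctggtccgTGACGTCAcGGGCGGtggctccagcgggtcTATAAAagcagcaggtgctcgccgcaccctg
Btc promoter, chr5:91402995-91403244, minus strand: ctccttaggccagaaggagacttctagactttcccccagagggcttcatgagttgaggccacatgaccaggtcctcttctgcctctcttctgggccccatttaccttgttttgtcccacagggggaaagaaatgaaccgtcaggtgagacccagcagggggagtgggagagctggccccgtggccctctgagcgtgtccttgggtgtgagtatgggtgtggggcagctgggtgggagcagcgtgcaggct
The motifs searched on both strands were the AP-1 site TGANTCA, the cyclic AMP response element TGACGTCA, the GC box GGGCGG, the TATA box TATAAA and the E-box CACGTG. Areg had a cyclic AMP response element beginning 61 bases before its start, a GC box at 52 and a TATA box at 31, with no overlap among them. Epgn had a TATA box at 33 bases before its earliest start, which is 86 bases before its RefSeq start. Of 32851 RefSeq windows of 250 bases, 12.4% held the TATA letters, 1.55% the cyclic AMP response element, 32.7% the GC box, 6.75% the AP-1 site and 6.02% the E-box. The window of Btc held none of the 5 motifs. These matches describe letters only and were not set against any measurement of binding.

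The remaining members are dispersed. Egf lies on chromosome 3 (129677574 to 129755322), Tgfa on chromosome 6 (86195038 to 86275744), Erbb3 on chromosome 10 (128567523 to 128589635), Egfr and Erbb2 on chromosome 11 (16752203 to 16913907 and 98412484 to 98437716) and Hbegf on chromosome 18 (36504927 to 36515805).

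Levels are given as counts per 1 M counts (CPM) after TMM scaling. Library totals were 18.55 to 20.44 M estimated counts. Calls were made where the Benjamini-Hochberg adjusted p, taken over all 16124 genes, was under 0.05 in edgeR's quasi-likelihood test. Standard errors (SE) of log2 fold changes are those implied by that test. The corneal identity of the tissue was checked on 10 corneal epithelial markers. Their summed level was 16569 to 22993 CPM in UCPRP and 17777 to 20587 CPM in UCS. It was 16299 to 19731 CPM in Vehicle and 39809 to 81880 CPM in Control. The keratin genes Krt5, Krt14 and Krt15 made up most of this sum in the injured groups, averaging 6595, 4754 and 5151 CPM in Vehicle. In Control they averaged 15841, 740 and 2994 CPM. In Vehicle against Control, 6 of the 10 markers were called lower and 1 higher. None of the 10 was at 0 in every library of a group. Krt12, the defining keratin of corneal epithelium, averaged 65.5 CPM in UCPRP, 22.6 CPM in UCS and 13.4 CPM in Vehicle against 22559 CPM in Control. Slurp1 averaged 2.03 CPM in UCPRP, 0.368 CPM in UCS and 0.611 CPM in Vehicle against 1513 CPM in Control. Its lowest value in UCPRP was 0. The 8 conjunctival and goblet cell markers summed to 14250 to 18468, 15274 to 19326 and 12900 to 18702 CPM in UCPRP, UCS and Vehicle, and to 2681 to 6216 CPM in Control. Retinal and lens transcripts were present in every group, at 4456 to 14005 and 440 to 28119 CPM in UCPRP, 4180 to 8870 and 205 to 12776 CPM in UCS, 2353 to 10901 and 409 to 8901 CPM in Vehicle, and 3154 to 8663 and 729 to 13506 CPM in Control. The libraries also fell into 2 sets by the clock gene Dbp, which was 14.7 to 25.9 CPM in UCS replicate 1, Vehicle replicates 1 and 2 and Control replicate 3, and 139 to 280 CPM in the other 8.

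In injured corneas without treatment, set against uninjured ones, 3 of the 10 members passed the test, where 16.5% of all genes tested did. Hbegf and Btc fell, as 6.92% of genes did, and Tgfa rose, as 9.58% did. The ranges of the groups did not overlap for 5 members, Egf, Hbegf, Btc, Epgn and Erbb2, each of which was lower in every Vehicle library than in any Control library. Across all genes 15.4% were lower without overlap and 15.2% higher without overlap, and no member was of the second kind. The median log2 fold change of the 10 members was −0.29, and that of all genes tested was −0.00.

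Hbegf, whose membrane precursor is released as a soluble ligand of EGFR and ErbB4, was measured at 83.9, 56.2 and 55.7 CPM in the Vehicle libraries, against 95.8, 187.5 and 116.9 CPM in the Control libraries. Every Vehicle value lay below every Control value, and Control replicate 2 was the highest of all 12 libraries. That library also had the lowest TMM factor, 0.825, and the fewest genes detected, 17440. The mean was 65.3 ± 16.2 CPM in Vehicle and 133 ± 48.0 CPM in Control (SD, n = 3 each). The log2 fold change was −1.03 (SE 0.23, 95% interval −1.54 to −0.53, adjusted p = 0.0098 edgeR quasi-likelihood, Benjamini-Hochberg). Without Control replicate 2 the log2 fold change was −0.71, still called. Of 22 other settings, the call was lost in the fit of Vehicle and Control alone, at an adjusted p of 0.0618. In bulk RNA of whole tissue, fewer cells of a type and less RNA per cell cannot be told apart, so these levels do not say which cells held less Hbegf. The corneal epithelial and conjunctival marker sums given above moved between the same groups, and their part in the result was not tested.

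The same ligand stayed low in both treated groups. Hbegf was 73.7, 66.8 and 63.9 CPM in UCPRP libraries and 73.6, 65.6 and 76.8 CPM in UCS libraries. All 9 injured libraries, at 55.7 to 83.9 CPM, were below the 3 Control libraries. Against Control, the log2 fold change was −0.97 in UCPRP (SE 0.23, adjusted p = 0.0210) and −0.89 in UCS (SE 0.23, adjusted p = 0.0287, edgeR). These comparisons share the Control libraries with the preceding one and with each other. Without Control replicate 2 they were −0.68 (adjusted p = 0.0507) and −0.56 (adjusted p = 0.0961), neither called. The UCS call was also lost without any single UCS library (adjusted p = 0.0726, 0.108 and 0.0743 without replicates 1, 2 and 3), and the UCPRP call without UCPRP replicate 2 (0.0728) or 3 (0.0816). Fitting only the libraries of the groups compared also ended both calls (adjusted p = 0.0574 in UCPRP and 0.0756 in UCS).

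Within the set of high-Dbp libraries, Hbegf was 55.7 CPM in the Vehicle library and 95.8 and 187.5 CPM in the Control libraries. Within the low-Dbp set it was 83.9 and 56.2 CPM in Vehicle and 116.9 CPM in Control. Vehicle was lower than Control in both sets. The high-Dbp set holds a single Vehicle library and the low-Dbp set a single Control library, so the split describes these libraries only.

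**Figure D1:**
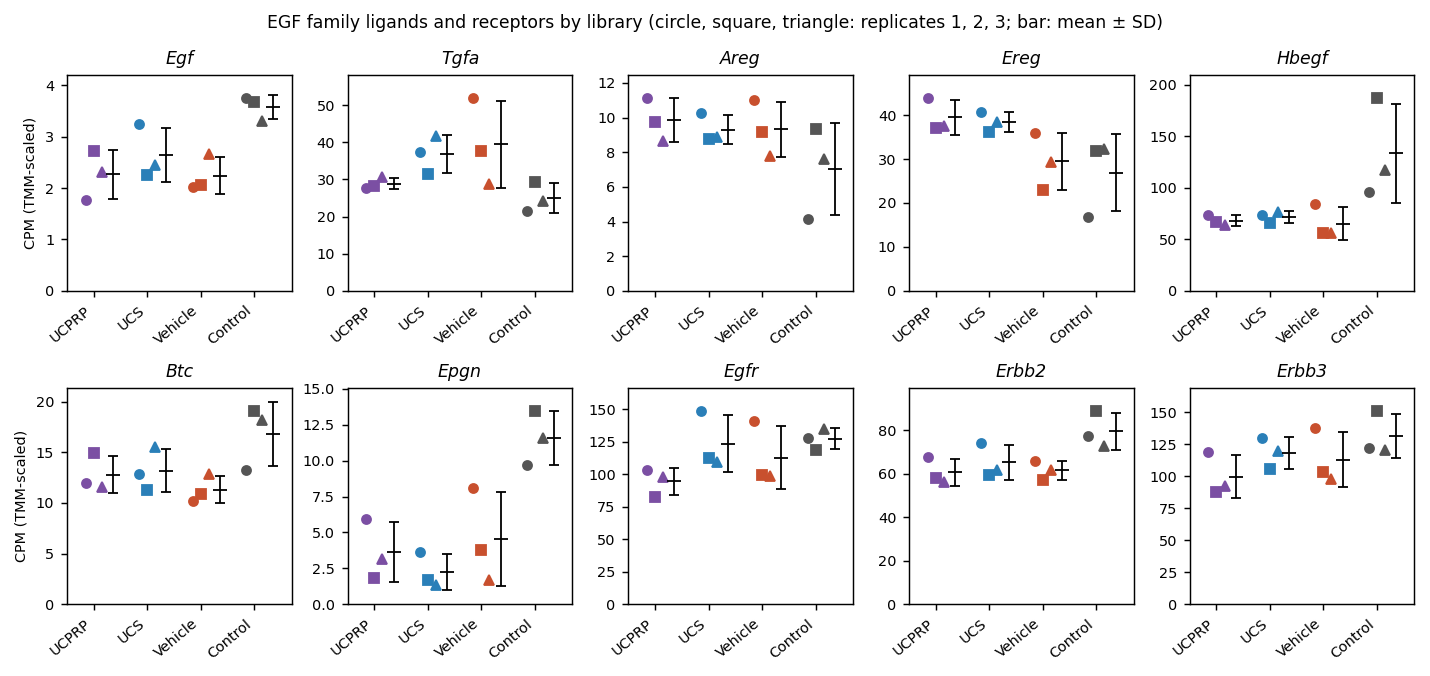
Level of each of the 10 members in every library, in CPM after TMM scaling (vertical axes start at 0), for UCPRP, UCS, Vehicle and Control; circles, squares and triangles are replicates 1, 2 and 3, and bars are the mean ± SD of 3 libraries. Hbegf is at 55.7 to 83.9 CPM in the 9 injured libraries and at 95.8 CPM or more in Control, and Egf and Epgn are likewise separated from Control.

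Epgn encodes epigen, a ligand of EGFR made mainly by epithelia. It was 5.92, 1.80 and 3.14 CPM in UCPRP, 3.67, 1.71 and 1.33 CPM in UCS, 8.10, 3.81 and 1.68 CPM in Vehicle, and 9.73, 13.5 and 11.6 CPM in Control. No injured library reached the lowest Control value, but the injured libraries spread widely, and replicate 1 was the highest in each injured group. The call was made in UCS against Control, with a log2 fold change of −2.37 (SE 0.58, 95% interval −3.65 to −1.09, adjusted p = 0.0229 by edgeR). It was lost without UCS replicate 2 (adjusted p = 0.0919), UCS replicate 3 (0.0992), Control replicate 2 (0.0694) or Control replicate 3 (0.0537). Against Control, the log2 fold change was −1.68 in UCPRP (SE 0.56, adjusted p = 0.0880) and −1.35 in Vehicle (SE 0.55, adjusted p = 0.131, edgeR), neither called. Without Vehicle replicate 1 the value in Vehicle was −2.07 (adjusted p = 0.0394), a call. The injured groups overlapped one another, and the log2 fold change of UCS against Vehicle had a 95% interval of −2.29 to 0.25.

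Btc encodes betacellulin, which binds EGFR and ErbB4. Its level was 10.2, 10.8 and 12.8 CPM in Vehicle and 13.2, 19.1 and 18.2 CPM in Control. The groups did not overlap, with Vehicle replicate 3 just below Control replicate 1. Btc fell in Vehicle by 0.58 on the log2 scale (SE 0.18, 95% interval −0.97 to −0.18, adjusted p = 0.0496, edgeR), at the edge of the threshold, and the call was lost in 17 of 22 other settings. Treated corneas had 11.9, 14.9 and 11.5 CPM in UCPRP and 12.8, 11.3 and 15.5 CPM in UCS, overlapping Control in both groups. The adjusted p against Control was 0.208 in UCPRP and 0.274 in UCS (edgeR).

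Egf, the family's founding ligand, was measured at 1.76, 2.72 and 2.31 CPM in UCPRP, 3.24, 2.25 and 2.45 CPM in UCS, 2.01, 2.05 and 2.65 CPM in Vehicle, and 3.76, 3.68 and 3.31 CPM in Control. All 9 injured libraries were below the 3 Control libraries, although the highest, UCS replicate 1, was close to the lowest Control value. The log2 fold change against Control was −0.66 in UCPRP, −0.44 in UCS and −0.68 in Vehicle, with edgeR adjusted p of 0.106, 0.301 and 0.0753, and no call was made. Egf, Hbegf and Epgn were thus the 3 members lower in all 9 injured libraries than in any Control library, a pattern that 7.57% of all genes tested showed. No member was higher in all 9, a pattern of 8.74% of genes.

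Tgfa, which encodes transforming growth factor alpha, an EGFR ligand made by keratinocytes and corneal epithelium, moved the other way. It was 52.0, 37.5 and 28.7 CPM in Vehicle, against 21.4, 29.3 and 24.2 CPM in Control. The groups overlapped, since Vehicle replicate 3 lay within the Control range. The mean was 39.4 ± 11.7 CPM in Vehicle and 24.97 ± 3.997 CPM in Control (SD, n = 3 each), a log2 fold change of 0.66 (SE 0.20, 95% interval 0.23 to 1.09, adjusted p = 0.0415, edgeR). This call was lost in 12 of 22 other settings, and without Vehicle replicate 1 the log2 fold change was 0.41 (adjusted p = 0.155). Within the high-Dbp libraries, Tgfa was 28.7 CPM in Vehicle and 21.4 and 29.3 CPM in Control. Within the low-Dbp libraries it was 52.0 and 37.5 CPM in Vehicle and 24.2 CPM in Control. The groups thus overlapped in the high-Dbp set, which holds a single Vehicle library, and not in the low-Dbp set. With clock phase as a covariate the adjusted p was 0.114 (edgeR).

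In treated corneas Tgfa was 27.7, 28.2 and 30.5 CPM in UCPRP and 37.4, 31.3 and 41.6 CPM in UCS. Every UCS library was above every UCPRP library and above every Control library, while UCPRP overlapped Control. Against Control, the log2 fold change of Tgfa was 0.21 in UCPRP (adjusted p = 0.563) and 0.56 in UCS (SE 0.20, 95% interval 0.13 to 0.99, adjusted p = 0.102, edgeR), neither called. The UCS value was called in 4 of 22 other settings, with library totals alone (adjusted p = 0.0335), after adjustment for retinal transcripts (0.0471), and without Vehicle replicate 1 (0.0408) or 3 (0.0498). Against Vehicle, the log2 fold change of Tgfa was −0.45 in UCPRP (SE 0.20, 95% interval −0.88 to −0.02), with an unadjusted p of 0.0412 and an adjusted p of 0.492 over all genes (edgeR). In UCPRP against UCS it was −0.35 (95% interval −0.78 to 0.08). The 3 UCPRP libraries and Vehicle replicate 3 were all in the high-Dbp set. Within that set Tgfa was 27.7 to 30.5 CPM in UCPRP, 31.3 and 41.6 CPM in UCS and 28.7 CPM in Vehicle. Vehicle replicates 1 and 2, at 52.0 and 37.5 CPM, and UCS replicate 1, at 37.4 CPM, were in the low-Dbp set, which holds no UCPRP library.

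Areg and Ereg encode amphiregulin and epiregulin, EGFR ligands that are commonly induced in inflamed and wounded epithelia, and epiregulin also binds ErbB4. Ereg was 44.0, 36.97 and 37.5 CPM in UCPRP, 40.8, 36.1 and 38.4 CPM in UCS, 35.98, 23.0 and 29.4 CPM in Vehicle, and 16.7, 31.7 and 32.3 CPM in Control. Both treated groups lay above the Vehicle and the Control ranges, narrowly so against Vehicle replicate 1, while Vehicle and Control overlapped. Against Vehicle the log2 fold change was 0.42 in UCPRP (SE 0.23, 95% interval −0.08 to 0.92, adjusted p = 0.576) and 0.38 in UCS (SE 0.23, 95% interval −0.11 to 0.88, adjusted p = 0.9998, edgeR), neither called. Against Control it was 0.55 (adjusted p = 0.166) in UCPRP and 0.51 (adjusted p = 0.201) in UCS, and the UCPRP value was called in the fit with a retinal covariate (adjusted p = 0.0382). Areg was 9.85 ± 1.26 CPM in UCPRP, 9.31 ± 0.822 CPM in UCS, 9.33 ± 1.60 CPM in Vehicle and 7.05 ± 2.64 CPM in Control (SD, n = 3 each). The Areg ranges overlapped in all 6 comparisons and no call was made. Control replicate 1 was the lowest library for both genes, at 4.17 CPM for Areg.

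The receptors passed the test in no comparison. Erbb2 was 67.8, 58.0 and 56.5 CPM in UCPRP, 74.4, 59.7 and 61.7 CPM in UCS, 66.0, 57.2 and 61.8 CPM in Vehicle, and 77.3, 89.0 and 72.6 CPM in Control. Vehicle and UCPRP libraries were all below Control, and UCS replicate 1 overlapped it. The log2 fold change against Control was −0.39 in UCPRP (SE 0.12, adjusted p = 0.0606), −0.29 in UCS (SE 0.12, adjusted p = 0.166) and −0.37 in Vehicle (SE 0.12, adjusted p = 0.0558, edgeR). All 3 values became calls in the fit with a retinal covariate (adjusted p = 0.0375 in UCPRP, 0.0413 in UCS and 0.00956 in Vehicle). DESeq2 called Erbb2 in UCPRP (0.0224) and Vehicle (0.0321), and so did edgeR without UCS replicate 1 (0.0494 and 0.0446).

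Egfr, the receptor of all 7 ligands, averaged 94.5 ± 10.7 CPM in UCPRP, 123.5 ± 21.9 CPM in UCS, 112.7 ± 24.2 CPM in Vehicle and 127.3 ± 8.12 CPM in Control (SD, n = 3 each). Its 3 UCPRP libraries, at 103, 82.5 and 97.9 CPM, were below all UCS libraries, at 148.7, 112.7 and 109 CPM. They were also below all Control libraries, at 127.8, 119 and 135 CPM. In UCPRP against UCS the log2 fold change was −0.39 (SE 0.16, 95% interval −0.75 to −0.03), with an unadjusted p of 0.0381 and an adjusted p of 0.985 (edgeR). Erbb3, the neuregulin receptor with the weak kinase, averaged 99.8 ± 17.1 CPM in UCPRP, 118.4 ± 12.4 CPM in UCS, 113.0 ± 21.4 CPM in Vehicle and 131.2 ± 17.2 CPM in Control. Against Control its log2 fold change was −0.40 in UCPRP (adjusted p = 0.168), −0.15 in UCS (adjusted p = 0.691) and −0.22 in Vehicle (adjusted p = 0.443, edgeR).

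**Figure D2:**
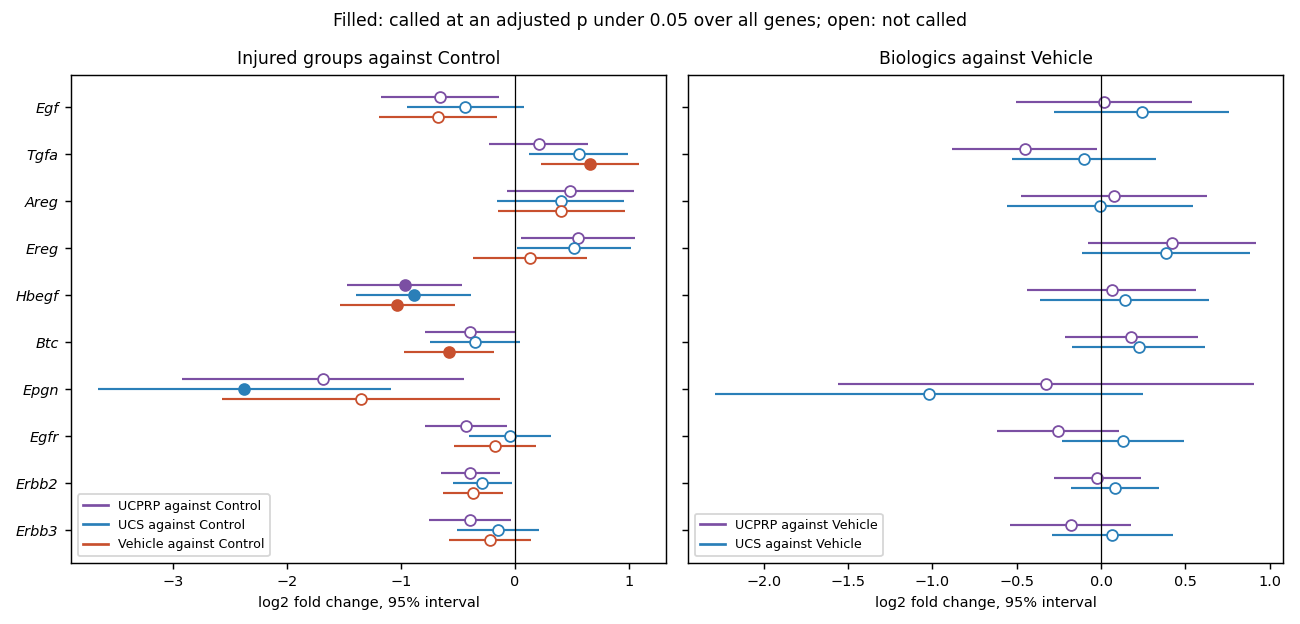
Log2 fold changes of the 10 members with 95% intervals, for the 3 injured groups against Control (left) and the biologics against Vehicle (right); filled points were called at an adjusted p under 0.05 over all genes by edgeR. Hbegf is called in all 3 injured groups, Epgn in UCS, and Tgfa and Btc in Vehicle, while no point is filled on the right.

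**Figure D3:**
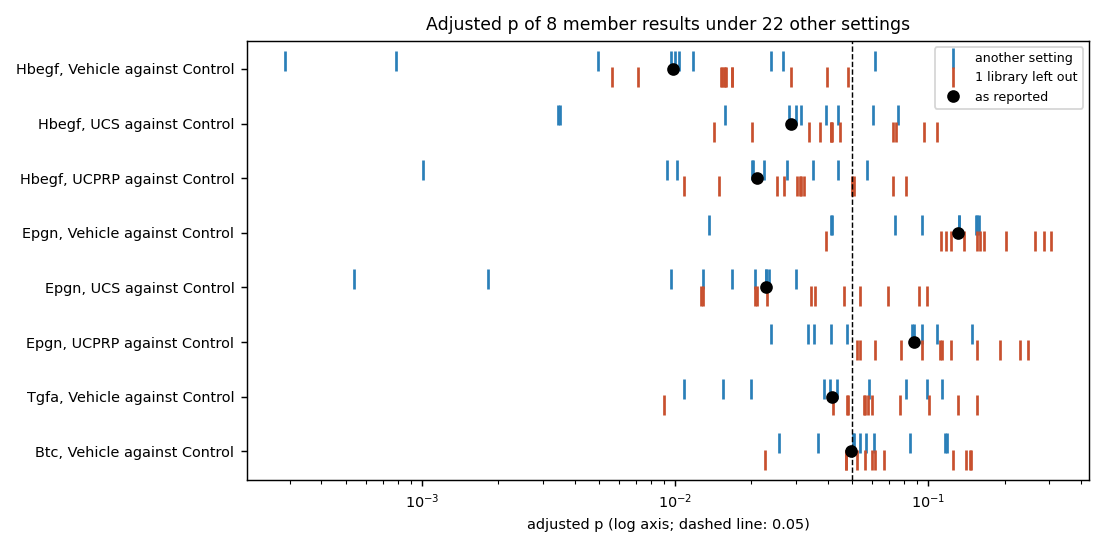
Adjusted p (log axis) of 8 results on Hbegf, Epgn, Tgfa and Btc as reported (black points) and under 10 other settings and 12 fits that leave out 1 library (ticks), with the threshold of 0.05 dashed. Hbegf in Vehicle against Control crosses the threshold in 1 setting, whereas Tgfa and Btc cross it in 12 and 17.

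Neither biologic changed a member against Vehicle by the test. In UCS against Vehicle, edgeR called 0 of the 10 members and 0.00% of all genes, no member had an unadjusted p under 0.05, and DESeq2 and limma-voom called no member. Over all genes 4.85% had an unadjusted p under 0.05. In UCPRP against Vehicle, edgeR, DESeq2 and limma-voom also called 0 members, edgeR called 0.00% of all genes, and 1 member, Tgfa, had an unadjusted p under 0.05, against 9.75% of all genes. Ereg was the 1 member higher without overlap in each of these comparisons, where 5.01% of genes were so in UCS and 6.69% in UCPRP. The comparisons share the Vehicle libraries. The median log2 fold change of the members was −0.00 in UCPRP and 0.11 in UCS, beside 0.03 and −0.01 for all genes. For Hbegf, the 95% interval of the log2 fold change against Vehicle was −0.44 to 0.56 in UCPRP and −0.36 to 0.64 in UCS, so the data do not exclude differences within these bounds.

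Between the biologics, edgeR, DESeq2 and limma-voom called 0 members, and edgeR called 0.00% of all genes. An unadjusted p under 0.05 was reached by 1 member, Egfr, against 2.44% of all genes. Egfr and Tgfa were lower in every UCPRP library than in any UCS library, 2 of 10 members, where 5.75% of genes were. The interval of the difference was −0.58 to 0.42 for Hbegf and −0.58 to 1.97 for Epgn, so differences within these bounds, in either direction, are compatible with the data. The members' median was −0.09, and that of all genes 0.02.

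Against Control, 2 of 10 members were called in UCS (Hbegf and Epgn, both lower), where 10.9% of all genes were called, 6.40% higher and 4.47% lower. In UCPRP, 1 was called (Hbegf, lower), where 10.4% of genes were, 5.30% higher and 5.07% lower. In UCS, 2 members (Tgfa and Ereg) were higher and 3 (Egf, Hbegf and Epgn) lower than Control without overlap, against 14.9% and 14.0% of all genes. In UCPRP, 1 member (Ereg) was higher without overlap, against 14.5% of genes. The 6 that were lower without overlap in UCPRP were Egf, Hbegf, Epgn, Egfr, Erbb2 and Erbb3, against 13.7% of genes. The median log2 fold change of the members was −0.40 in UCPRP and −0.22 in UCS, beside 0.04 and −0.01 for all genes.

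Levels of different members were compared after division by the length of their merged exons (CPM per kb, GENCODE M21). In Control, Hbegf was the highest member at 27.6 ± 9.94 CPM per kb, followed by Erbb3 at 21.8 ± 2.86 and Erbb2 at 15.3 ± 1.61 (SD, n = 3 each). In the injured groups Erbb3 stood first, at 16.6 ± 2.84 CPM per kb in UCPRP, 19.7 ± 2.06 in UCS and 18.8 ± 3.55 in Vehicle, and Hbegf followed at 14.1 ± 1.04, 14.9 ± 1.196 and 13.5 ± 3.34. With the longest transcript as the length, Hbegf was first in all 4 groups, so the order of these members depends on the length used. Egf was last in every group on either scale, at 0.201 ± 0.0428 CPM per kb in UCPRP, 0.235 ± 0.0465 in UCS, 0.199 ± 0.0319 in Vehicle and 0.318 ± 0.0210 in Control.

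The make-up of the ligand transcripts was described as each ligand's share of the summed CPM per kb of the 7 ligands, with no test. Hbegf made up 33.6 to 34.8% of that sum in UCPRP, 34.3 to 36.7% in UCS and 33.0 to 34.7% in Vehicle, against 45.9 to 54.9% in Control. The Control libraries stood apart from all 9 injured ones. Areg made up 18.4 to 20.2%, 16.9 to 19.0% and 18.1 to 21.5% in UCPRP, UCS and Vehicle, against 8.75 to 11.9% in Control. Ereg made up 22.6 to 23.5%, 21.5 to 23.0% and 15.8 to 21.3% in the same groups, against 10.3 to 14.8% in Control, and Tgfa 9.39 to 12.2%, 12.7 to 14.8% and 13.2 to 16.4% against 6.38 to 8.41%. Epgn was the other ligand with a larger share in Control, at 10.5 to 13.7%, against 2.51 to 7.22% in UCPRP, 1.70 to 4.56% in UCS and 2.78 to 8.96% in Vehicle. The share of Btc overlapped among all groups, and Egf stayed under 0.85% in every library. Shares sum to a fixed whole, so a lower share of Hbegf raises the others; the summed level was 41.2 ± 3.66 CPM per kb in UCPRP, 41.9 ± 3.44 in UCS, 39.6 ± 9.11 in Vehicle and 54.2 ± 15.8 in Control.

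**Figure D4:**
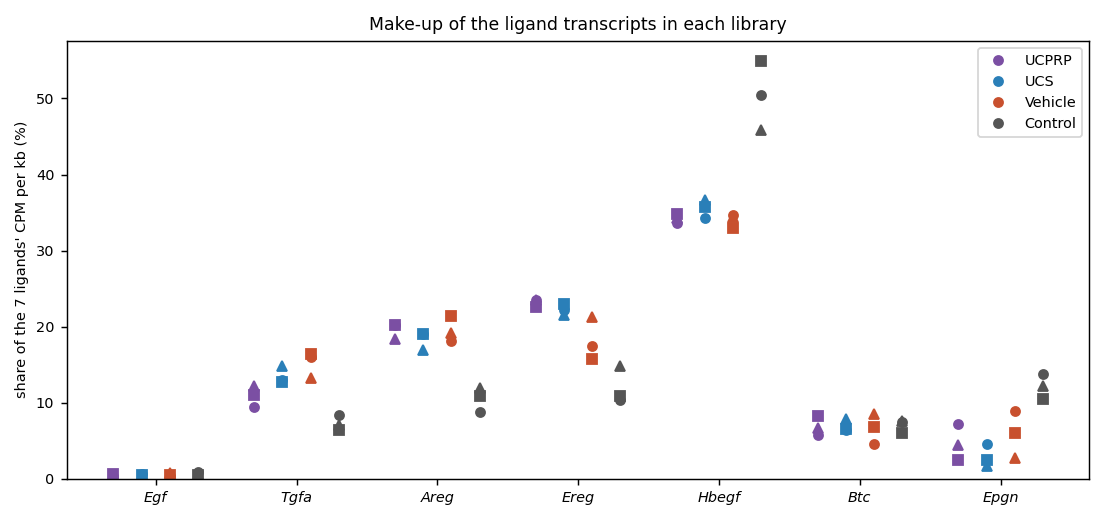
Share of each ligand in the summed CPM per kb of the 7 ligand genes, in percent, for every library of UCPRP, UCS, Vehicle and Control (circles, squares and triangles are replicates 1, 2 and 3). Hbegf and Epgn take larger shares in the 3 Control libraries than in any injured library, and Areg, Ereg and Tgfa smaller ones.

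Vehicle replicate 1 held the highest value of its group for 8 of the 10 members, UCPRP replicate 1 and UCS replicate 1 for 7 each, and Control replicate 2 for 7. Over the 12 libraries, the Pearson correlation of log2 CPM was 0.869 between Hbegf and Erbb2, 0.835 between Erbb2 and Erbb3, 0.825 between the neighbours Areg and Ereg, and 0.791 between Egfr and Erbb3. The lowest, −0.581, was between Egf and Areg. These libraries share the group differences and the library scaling, so the values describe the 12 libraries only. Among 12580 genes compared, the most alike in pattern were Ist1 (0.980) and Arhgap22 (0.977) for Hbegf, Smad4 and Ccdc71l (0.968 each) for Tgfa, Dll1 (0.942) and Sdc4 (0.933) for Epgn, and Fancc (0.883) and Tgm5 (0.877) for Ereg. For the remaining ligands they were Pus1 (0.929) and Htatip2 (0.915) for Areg, Cbr4 (0.930) and Zfp110 (0.910) for Btc, and Kif21a (0.938) and Ezh1 (0.878) for Egf. For the receptors they were Efcab14 (0.967) and Arhgef5 (0.929) for Egfr, Cobl and Cited4 (0.963 each) for Erbb2, and Plxnb2 (0.963) and Lrp10 (0.950) for Erbb3.

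The rest of the family, Erbb4 and the 4 neuregulin genes Nrg1 to Nrg4, held 2 called genes of 5 in Vehicle against Control, both lower, where 6.92% of all genes were called lower. Nrg2, a ligand of ErbB3 and ErbB4, was 5.33, 6.86 and 9.18 CPM in Vehicle and 16.8, 13.1 and 13.3 CPM in Control, a log2 fold change of −1.02 (SE 0.22, adjusted p = 0.00785, edgeR) that was called in all 22 other settings. In treated corneas Nrg2 was 17.8, 11.7 and 16.3 CPM in UCPRP and 11.2, 11.8 and 9.63 CPM in UCS, and neither treated group overlapped Vehicle. Against Vehicle its log2 fold change was 1.10 in UCPRP (SE 0.22, unadjusted p = 0.000345, adjusted p = 0.331) and 0.61 in UCS (SE 0.22, adjusted p = 0.916, edgeR). Neither was called, while DESeq2 (adjusted p = 0.00516) and edgeR without Vehicle replicate 3 (adjusted p = 0.0238) called the UCPRP difference. Erbb4, the receptor shared by Hbegf, Btc, Ereg and the neuregulins, was 3.92, 4.64 and 4.799 CPM in Vehicle against 7.31, 6.11 and 6.32 CPM in Control (log2 fold change −0.56, SE 0.16, adjusted p = 0.0333, edgeR), a call lost in 9 of 22 other settings. Nrg1, the best expressed of these genes, averaged 22.01 ± 3.65 CPM in UCPRP, 27.6 ± 8.16 in UCS, 22.8 ± 4.38 in Vehicle and 24.2 ± 3.24 in Control and overlapped throughout.

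Of 11 genes for the release and trafficking of ErbB ligands, 5 rose and 1 fell in Vehicle against Control, where 9.58% of all genes rose and 6.92% fell. The protease genes Adam12 and Adam8 averaged 18.8 and 69.9 CPM in Vehicle against 1.27 and 5.94 CPM in Control, log2 fold changes of 3.87 (SE 0.61, adjusted p = 0.00129) and 3.55 (SE 0.54, adjusted p = 0.00116, edgeR). Adam8 is also a gene of leukocytes, and the macrophage markers summed to 771 to 962 CPM in Vehicle against 194 to 274 CPM in Control, and the neutrophil markers to 80.8 to 430 CPM against 9.34 to 16.5 CPM. The part of these cells in the protease levels was not tested. Adam9 averaged 88.0 CPM in Vehicle and 58.7 CPM in Control (log2 fold change 0.58, SE 0.16, adjusted p = 0.0275), and its call was lost in 6 of 22 other settings. The 1 that fell was Adam15, which averaged 96.9 CPM in Vehicle and 127.1 CPM in Control (log2 fold change −0.39, SE 0.12, adjusted p = 0.0433, edgeR). Adam17 averaged 85.5 and 76.6 CPM in Vehicle and Control with overlapping libraries (0.16, SE 0.16, adjusted p = 0.585, edgeR) and was not called. The median of the list was 0.36.

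Among 20 feedback inhibitors of EGFR and ERK signalling, 3 rose and 3 fell, with a median log2 fold change of −0.05, beside 9.58% and 6.92% of all genes. Sh3kbp1, an adaptor in the internalisation of EGFR, averaged 31.1 CPM in Vehicle and 14.1 CPM in Control (log2 fold change 1.14, SE 0.11, adjusted p = 0.000105, edgeR). Cblb, a ubiquitin ligase that marks activated EGFR for degradation, averaged 33.1 and 22.1 CPM in Vehicle and Control (0.58, SE 0.10, adjusted p = 0.00206). Spry1, an inhibitor of the RAS–ERK route, averaged 27.8 CPM in Vehicle and 44.4 CPM in Control (−0.68, SE 0.20, adjusted p = 0.0374), a call lost in 9 of 22 other settings.

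Of 24 adaptors and kinases below the receptors, 2 rose and 2 fell, with a median of −0.05. These counts were near the shares of all genes, 9.58% higher and 6.92% lower. The adaptor gene Gab2 averaged 18.0 CPM in Vehicle and 12.01 CPM in Control (log2 fold change 0.58, SE 0.13, adjusted p = 0.00909). Pik3r1, a regulatory subunit of PI3K, averaged 123.8 and 87.7 CPM in Vehicle and Control (0.50, SE 0.12, adjusted p = 0.0174), and the kinase gene Braf 61.2 and 85.6 CPM (−0.48, SE 0.11, adjusted p = 0.0126, edgeR). The Pik3r1 call was lost in 3 of 22 other settings, among them without Vehicle replicate 1 (adjusted p = 0.0657) and without Control replicate 2 (0.0664), and the Braf call in 2.

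Of 20 transcripts that EGFR and ERK signalling is known to induce in epithelial cells, 6 rose and 2 fell, where 9.58% of all genes rose and 6.92% fell. The list's median was 0.40 and that of all genes −0.00. Plaur, the urokinase receptor, averaged 17.3 CPM in Vehicle and 1.65 CPM in Control (log2 fold change 3.39, SE 0.50, adjusted p = 0.000906, edgeR). Ptgs2, the inducible cyclooxygenase, averaged 32.6 CPM in Vehicle and 7.02 CPM in Control (2.22, SE 0.44, adjusted p = 0.00513). The cytokine gene Lif averaged 8.71 and 3.20 CPM in Vehicle and Control with overlapping libraries (1.44, SE 0.44, adjusted p = 0.0452), a call lost in 13 of 22 other settings. The 2 that fell were Ccnd1 and Fos. Ccnd1 averaged 150.65 CPM in Vehicle and 290.88 CPM in Control (−0.95, SE 0.18, adjusted p = 0.00379, edgeR). Fos averaged 19.64 and 35.96 CPM in Vehicle and Control with overlapping libraries (−0.87, SE 0.26, adjusted p = 0.0410, edgeR). Plaur and Ptgs2 are also expressed by myeloid cells, whose markers moved as given above, and the part of these cells was not tested.

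In all 3 comparisons among injured groups, edgeR called no gene of these 5 lists and 0.00% of all genes. The best expressed gene of each list, Nrg1, Timp3, Lrig1, Mapk3 and Mcl1, had log2 fold changes of −0.05, 0.03, −0.03, 0.24 and −0.15 in UCPRP against Vehicle and 0.28, 0.09, 0.04, 0.14 and −0.14 in UCS against Vehicle. In UCPRP against UCS they were −0.33, −0.06, −0.07, 0.10 and −0.01. Against Control, 4 of the 20 induced transcripts were called higher and 2 lower in UCPRP, and 3 higher and 2 lower in UCS, with medians of 0.23 and 0.24. Over all genes 5.30% were called higher and 5.07% lower in UCPRP, and 6.40% higher and 4.47% lower in UCS, which also holds for the lists that follow. Of the 11 ligand release genes, 1 was called higher in UCPRP and 2 in UCS, and none lower. Of the 20 feedback inhibitors, 2 were called higher and 1 lower in UCPRP, and 2 higher in UCS. Of the 24 adaptors and kinases, 0 were called in UCPRP and 1 higher in UCS. Erbb4 and the neuregulins held no call in either group.

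**Figure D5:**
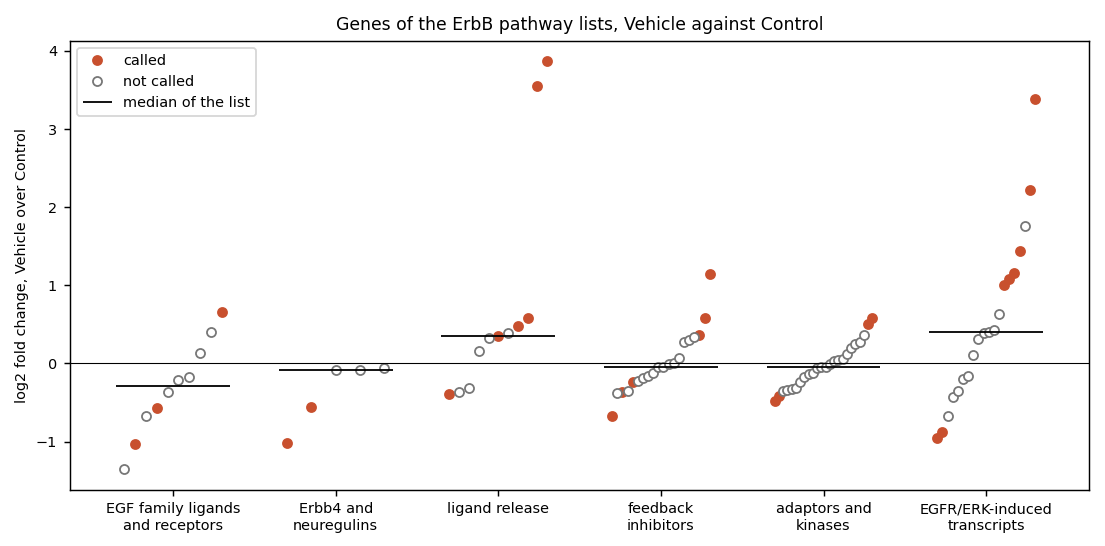
Log2 fold change of Vehicle over Control for each gene of the 10 EGF family ligands and receptors and of the 5 ErbB pathway lists; filled points were called by edgeR and horizontal bars are list medians. Genes of ligand release and induced transcripts reach 3.39 to 3.87, while the 10 members lie between −1.35 and 0.66.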

How the data were processed

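RNA sequencing was done on whole mouse corneas. Extraction used the Qiagen RNeasy kit and library construction the TruSeq Stranded Total RNA kit, per the labels' protocols. HISAT and the build GRCm38 come from the submitters' processing notes. For the counting tool, annotation and use of strand, nothing is given in the sources used here. The authors deposited an estimated count per gene and library, without scaling to library size. Of these values 64.9% were whole, and all were rounded before testing. Where genes overlap on opposite strands, their counts are uncertain.

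The filter filterByExpr at a minimum count of 10 left 16124 of 19702 genes. These were scaled with TMM (factors 0.825 to 1.067) and tested by quasi-likelihood in edgeR (version 4.0.16, under R 4.3.3), using 1 term per group. All 12 libraries entered the fit, and each of 6 pairwise comparisons was adjusted by the Benjamini-Hochberg method over all genes. SE is the size of the log2 fold change over the root of edgeR's F statistic. The common biological coefficient of variation was 0.227. Library totals of 18.55 to 20.44 M set the counting error, and the spread between 3 pooled libraries a group sets the rest of the precision. The scripts were tested on simulated counts.

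The members and lists were chosen with earlier results of these data known. All 10 members are given in every comparison. From each pathway list the 3 called genes with the largest absolute log2 fold change are named. Where none was called, the gene with the highest mean level is named. Adam15, Adam17, Fos and Ccnd1 are added for Vehicle against Control and were not recomputed under the other settings. The genes most alike are the 2 with the highest correlation to a member, among those with a mean of at least 5 CPM. Alternatives were the replicate block, DESeq2 size factors, library totals alone, DESeq2 1.42.0, limma-voom (limma 3.58.1), no filter, a filter on a mean of 1 CPM, covariates for clock phase and retinal transcripts, fits of 2 groups alone, and leaving out each library. Coordinates and promoter windows are from RefSeq on GRCm38.p6, exon lengths from GENCODE M21, and earliest transcript starts from either.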

Additional observations from a re-analysis of the deposited data

How the results depend on the processing

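The 60 results on the members were recomputed under 22 settings, 10 of them other choices and 12 leaving out 1 library each. No called result changed direction. In Vehicle against Control, 3 members were called, and there were 1 with the clock covariate, 5 with the retina covariate, 0 in the fit of 2 groups alone and 1 to 3 without 1 library. In UCS against Control, 2 were called, and there were 1 with the replicate block, 4 with the retina covariate, 1 in the fit of 2 groups alone and 0 to 3 without 1 library (0 without UCS replicate 2, UCS replicate 3 or Control replicate 2). In UCPRP against Control, 1 was called, and there were 2 with the replicate block, 3 with DESeq2, 2 with limma-voom, 4 with the retina covariate and 0 to 2 without 1 library (0 without UCPRP replicate 2, UCPRP replicate 3 or Control replicate 2). The fit of 2 groups alone also gave 1 there, Epgn in place of Hbegf. The fits of 2 groups alone and those without a library use fewer libraries; for the others the cause was not tested. No member was called in the comparisons among injured groups under any of the 22 settings. Hbegf in Vehicle against Control ran from −1.25 to −0.71. Epgn became a call in Vehicle against Control with the replicate block (adjusted p = 0.0415), limma-voom (0.0412), the retina covariate (0.0136) and without Vehicle replicate 1, and in UCPRP against Control with the replicate block (0.0353), DESeq2 (0.0239), limma-voom (0.0412), the retina covariate (0.0335) and the fit of 2 groups alone (0.0478). With the replicate block, Hbegf in UCS against Control had an adjusted p of 0.0602 and Tgfa in Vehicle against Control 0.0815.

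Over all genes, the count called in UCS against Vehicle was 13 with DESeq2 (2 higher, 11 lower) and 37 without Vehicle replicate 3, and in UCPRP against Vehicle 145 with DESeq2 (6 higher, 139 lower) and 195 without Vehicle replicate 3. In Vehicle against Control, 604 genes were lower in the fit of 2 groups alone and 626 without Vehicle replicate 2, against 1116. In UCS against Control, 1114 were lower with the retina covariate, against 721, and 1089 genes were called without UCS replicate 3, against 1753. In UCPRP against Control, 532 were lower in the fit of 2 groups alone, against 817, and 1009 and 998 genes were called without UCPRP replicates 2 and 3, against 1671. Scaling by library totals alone moved the median of all genes in Vehicle against Control by 0.11.

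Taken over all 12 libraries, replicate numbers showed no steady pairing. The replicate 1 libraries of the 3 injured groups correlated with one another at 0.34 to 0.494, and with Control replicate 1 at −0.581 to −0.214. Whether replicate 1 libraries shared a batch was not tested. Deviations of same-numbered libraries correlated at −0.581 to 0.494 and those of others at −0.498 to 0.585, and 3 of 12 libraries correlated best with their own number.

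With the named genes of the pathway lists added to the members, 93 gene results were recomputed. Among these 93, directions changed for 26 uncalled results, each with a reported log2 fold change under 0.33 in size. For Areg in UCS against Vehicle the value was 0.0016 with the replicate block, 0.0015 with DESeq2 or its size factors, 0.0076 with limma-voom and 0.0524 with the clock covariate. In UCPRP against Vehicle, Egf was −0.0106 with library totals and −0.0197 with the retina covariate, Epgn 0.2888 with the clock and 0.0965 with the retina covariate, Erbb2 0.05 with the retina and Timp3 −0.0039 with the clock covariate. In UCPRP against UCS, Hbegf was 0.0715, Timp3 0.0345 and Mcl1 0.0798 with the retina covariate and Mapk3 −0.0024 with the clock covariate. Egfr in UCS against Control was 0.0326 with library totals. Leaving out 1 library gave ranges that crossed 0. In Vehicle against Control, Ereg ran from −0.1228 to 0.2895. In UCS against Control, Egfr ran from −0.1997 to 0.0379. In UCS against Vehicle, Tgfa ran from −0.2828 to 0.1501, Areg from −0.1151 to 0.1317, Egfr from −0.0229 to 0.3227, Erbb2 from −0.0214 to 0.1386, Erbb3 from −0.0234 to 0.2337, Timp3 from −0.0555 to 0.2223 and Lrig1 from −0.0567 to 0.1178. In UCPRP against Vehicle, Egf ran from −0.135 to 0.1688, Areg from −0.0342 to 0.2125, Hbegf from −0.0482 to 0.2854, Epgn from −0.8749 to 0.3926, Erbb2 from −0.1066 to 0.0304, Nrg1 from −0.1457 to 0.1177, Timp3 from −0.1382 to 0.1643 and Lrig1 from −0.1615 to 0.0472. In UCPRP against UCS, Areg ran from −0.0178 to 0.1671, Ereg from −0.0467 to 0.0832, Btc from −0.1695 to 0.0848, Erbb2 from −0.1903 to 0.0007, Timp3 from −0.231 to 0.0372, Lrig1 from −0.199 to 0.0162 and Mcl1 from −0.0844 to 0.03. With 3 pooled libraries a group, the p-values measure the spread between pools.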
